A study of Mus musculus with 2 samples.

Results

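The Period genes Per1, Per2 and Per3 were described across single mouse fibroblasts sorted on a clock reporter. They were chosen by symbol and are 3 of the 33757 features in the count table (Per1, ENSMUSG00000020893.18; Per2, ENSMUSG00000055866.10; Per3, ENSMUSG00000028957.13). The cells were NIH3T3-Rev-VNP1-H2B-iRFP, a derivative of the NIH3T3 mouse embryonic fibroblast line. They carry a Venus reporter named for Nr1d1, which encodes the clock repressor REV-ERB alpha, and histone H2B joined to the near-infrared protein iRFP. All cells were untreated, unsynchronized and near confluence when sorted singly into 384-well plates and sequenced with FLASH-seq, which reads whole transcripts of individual cells. The labels give 1 group with 2 samples, plate 1 and plate 2, and do not say whether the plates came from separate cultures or whether the line is a single clone.

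PERIOD proteins are the negative arm of the mammalian circadian clock. CLOCK and BMAL1 (the product of Arntl) bind E-box elements and activate the Per and Cry genes. PER and CRY proteins accumulate, enter the nucleus as a complex and repress that activation until casein kinases and the ubiquitin system remove them. PER1 and PER2 are the members needed for a robust rhythm in most tissues, and PER3 is largely dispensable for it. Transcription of Per1 and Per2 also responds directly to cAMP signals, serum and glucocorticoids. Nr1d1, Dbp and Tef are targets of the same activators, and DBP and TEF bind D-box elements.

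Each plate held 4 gates of Venus brightness, numbered here from 1 (dimmest) to 4 (brightest), with 96 wells a gate. The labels name 2 iRFP bins under each plate, whereas the sorting record gives only a high RFP sort for plate 1 and only a low one for plate 2. By that record, iRFP brightness and plate cannot be told apart. Gate 1 occupied well columns 1 to 6 and gate 4 columns 19 to 24, on one plate as on the other, so gate and plate column cannot be told apart either. Of 768 cells, 762 passed the filters, with 151173 to 1618022 counts each and 76042157 to 86612194 counts in each of the 8 sums of plate and gate. Summed fibroblast markers lay at 19337 to 24712 CPM (counts scaled to a common library size), whereas summed immune markers lay at 0.118 to 0.846 CPM. Col1a1, Col1a2, Vim, Fn1 and S100a4 were found in every passing cell and Pdgfrb in 99.1%. Thy1, on the same fibroblast list, was found in 51.8%, with a mean of 79.8 CPM in gate 1 and 31.2 CPM in gate 4. The reporter mRNA, counted as a feature named YFP, rose along the gates by 1.67 on plate 1 and 1.59 on plate 2 (log2 per gate).

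The promoters are shown because the gates order cells by a clock reporter and because the members' transcripts moved along them. RefSeq sequences of build GRCm38.p6 run from 250 bases before to 50 bases after a start site. Matches to 4 motifs on either strand are in capitals: the E-box CACGTG, the E-box-like CACGTT, the D-box-like TTATGNAA and the cAMP-response core TGACGT. The table held 2 start sites for Per1 and 1 for Per3. It had no entry for Per2, so no Per2 promoter could be searched or shown.

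Per1, chr11:69098699-69098998, plus strand: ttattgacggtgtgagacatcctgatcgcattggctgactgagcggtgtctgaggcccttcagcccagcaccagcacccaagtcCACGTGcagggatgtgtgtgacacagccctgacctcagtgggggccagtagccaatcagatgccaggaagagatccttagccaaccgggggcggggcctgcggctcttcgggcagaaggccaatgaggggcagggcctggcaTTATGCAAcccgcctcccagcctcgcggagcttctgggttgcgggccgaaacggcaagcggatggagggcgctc

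Per1, chr11:69099902-69100201, plus strand: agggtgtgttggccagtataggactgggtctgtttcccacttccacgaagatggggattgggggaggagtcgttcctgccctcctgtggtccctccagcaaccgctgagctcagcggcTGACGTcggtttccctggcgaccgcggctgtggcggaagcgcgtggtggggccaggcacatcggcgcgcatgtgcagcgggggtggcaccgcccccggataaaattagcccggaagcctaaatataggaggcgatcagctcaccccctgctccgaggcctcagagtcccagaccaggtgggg

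Per3, chr4:151044616-151044915, minus strand: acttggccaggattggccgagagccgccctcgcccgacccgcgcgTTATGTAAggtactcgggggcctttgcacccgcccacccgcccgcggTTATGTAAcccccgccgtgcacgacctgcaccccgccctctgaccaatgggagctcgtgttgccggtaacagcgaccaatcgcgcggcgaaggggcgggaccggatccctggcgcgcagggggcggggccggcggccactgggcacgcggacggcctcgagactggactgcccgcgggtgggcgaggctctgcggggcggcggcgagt

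The first Per1 window held 1 E-box, at position -166 from the start site, and 1 D-box-like match at -24. The second Per1 window held 1 cAMP-response core, at -132. The Per3 window held 2 D-box-like matches, at -205 and -158. Among 32851 promoter windows of this length, 7.15% held CACGTG, 4.68% held CACGTT, 3.38% held TTATGNAA and 7.51% held TGACGT. Windows with 2 or more D-box-like matches made up 0.161%. A match of letters is not evidence of binding.

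All 3 Period transcripts rose with Venus brightness on both plates. Per2 rose from the lowest level, by 0.70 ± 0.07 log2 units per gate (SE; edgeR quasi-likelihood test over 8 sums, Benjamini-Hochberg adjusted p = 0.00208). Per3 rose by 0.52 ± 0.03 per gate (adjusted p = 0.000176, edgeR) and Per1 by 0.36 ± 0.03 (adjusted p = 0.00123, edgeR). All 3 members were called, against 15.4% of the 18430 genes tested (6.78% higher and 8.64% lower). A sum over cells cannot separate fewer expressing cells from less RNA per cell. The detection shares given further on cannot settle this either, because such a share also rises with RNA per cell.

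Per1, on plate 1, stood at 17.9, 16.5, 23.7 and 37.1 CPM in gates 1 to 4. On plate 2 it stood at 17.9, 19.2, 28.7 and 38.1 CPM. Gates 1 and 2 overlapped, and both plates lay higher in gate 3 and higher again in gate 4. Per2 stood at 2.72, 4.80, 8.12 and 12.6 CPM on plate 1, and at 4.76, 3.98, 9.86 and 18.1 CPM on plate 2. Its gates 1 and 2 also overlapped, and gates 3 and 4 were higher in turn on each plate. Per3 stood at 14.4, 22.9, 42.0 and 41.9 CPM on plate 1, and at 16.6, 22.5, 40.7 and 45.1 CPM on plate 2. Here gate 2 already lay above gate 1 on both plates, while gates 3 and 4 overlapped.

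**Figure D1:**
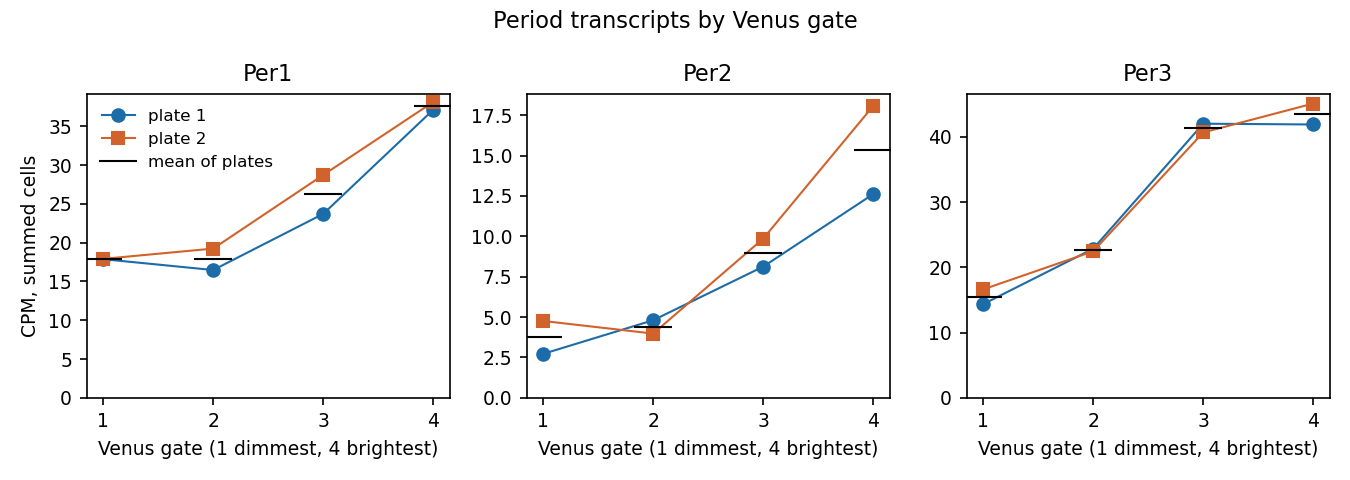
Summed Per1, Per2 and Per3 levels (CPM, vertical axis) against Venus gate (horizontal axis, 1 dimmest to 4 brightest) on plates 1 and 2, each point 1 sum of 94 to 96 cells. Per1 is flat from gate 1 to gate 2 and then climbs to 37.1 and 38.1, Per2 climbs to 12.6 and 18.1, and Per3 levels off at 41.9 and 45.1.

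The mean of the 2 plates went from 17.9 ± 0.027 CPM (SD, n = 2) in gate 1 to 37.6 ± 0.71 in gate 4 for Per1. The same means were 3.74 ± 1.44 and 15.3 ± 3.86 CPM for Per2, and 15.5 ± 1.60 and 43.5 ± 2.27 CPM for Per3. From gate 1 to gate 4 the fitted differences were 1.02 for Per1, 1.99 for Per2 and 1.44 for Per3 on the log2 scale. Divided by merged exon length, the sums ranged from 2.93 to 6.77 CPM per kb for Per1, 1.49 to 4.70 for Per3 and 0.465 to 3.09 for Per2. Per length, Per2 was the least abundant of the 3 in every sum, and Per1 the most abundant in all but gate 3 of plate 1, where it stood at 4.21 CPM per kb and Per3 at 4.37.

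The steps between neighbouring gates were tested in the same fit. From gate 1 to gate 2, Per3 was higher by 0.54 ± 0.09 (log2 ± SE; adjusted p = 0.0659, edgeR), Per2 by 0.28 ± 0.24 (adjusted p = 0.672) and Per1 differed by -0.02 ± 0.10 (adjusted p = 0.966). That step called 0.271% of genes and no member. From gate 2 to gate 3, Per3 rose by 0.86 ± 0.08 (adjusted p = 0.0194, edgeR) in a step that called 0.0651% of genes (0.0434% higher). Per2 had the larger estimate there, 1.00 ± 0.23, without passing the test (adjusted p = 0.277, edgeR), and Per1 had 0.55 ± 0.10 (adjusted p = 0.171).

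From gate 3 to gate 4 Per3 had the smallest estimate of the 3. Per2 was higher by 0.72 ± 0.22 (adjusted p = 0.188, edgeR), Per1 by 0.48 ± 0.10 (adjusted p = 0.0919) and Per3 by 0.03 ± 0.08 (adjusted p = 0.911). This step called 0.260% of genes and no member. With DESeq2 in place of edgeR, the step from gate 1 to 2 was called for Per3, and the steps from gate 2 to 3 and from 3 to 4 were called for Per1 and Per2. DESeq2 also called more genes in all, 718, 231 and 979 in the 3 steps against 50, 12 and 48 with edgeR. Calls changed within edgeR too. Without a filter on low counts, edgeR called Per3 from gate 1 to 2 (adjusted p = 0.00852). That setting also called Per1 from gate 2 to 3 (adjusted p = 0.0388) and from 3 to 4 (adjusted p = 0.0317), but no step of Per2. With cells thinned to equal counts, edgeR called Per3 from gate 1 to 2 (adjusted p = 0.0235). Library totals, the stricter cell filter and no block changed no member's call. The difference in slope between members was tested by exact permutation of the gates inside plates (576 orders, two-sided). Per2 exceeded Per1 by 0.34 log2 units per gate (exact p = 0.0243; adjusted over 3 pairs, 0.0729), by 0.37 on plate 1 and 0.32 on plate 2. Per3 exceeded Per1 by 0.16 (exact p = 0.219; adjusted 0.219) and fell short of Per2, at -0.19 (exact p = 0.156; adjusted 0.219). The smallest p this test can give is 0.00347, and no pair passed after adjustment.

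Between the plates, Per2 was the member that differed most. The level of Per2 on plate 1, the high RFP sort by the sorting record, was 0.763 of that on plate 2 (95% Poisson interval 0.722 to 0.806). The ratio was 0.904 (0.876 to 0.933) for Per1 and 0.964 (0.938 to 0.992) for Per3. The iRFP transcript itself had a ratio of 2.21. With 1 sample of each sort these intervals cover counting error only, and reads without stated molecular identifiers are not independent molecules.

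Detection separated the members clearly. At least 1 count of Per1 was found in 96.1% of plate 1 cells and 93.4% of plate 2 cells. For Per3 the shares were 89.8% and 89.4%. Per2 was found in 49.1% (188 of 383 cells; exact 95% interval 44.0 to 54.2) and 56.2% (213 of 379; 51.0 to 61.3). Per2 was thus the member seen in about as many cells as it was missed in.

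The share of cells with Per2 was higher in each brighter gate on both plates. It was 18.9%, 34.4%, 62.5% and 80.2% on plate 1. The plate 2 shares ran 33.7%, 38.3%, 67.7% and 85.1%. After each cell was thinned to 300000 counts, which left out 8 shallower cells, all on plate 2 in gate 2, the shares were 15.8%, 32.3%, 59.4% and 72.9% on plate 1 and 29.5%, 34.9%, 61.5% and 83.0% on plate 2. Per3 went from 76.8% to 99.0% on plate 1 and from 70.5% to every one of 94 cells on plate 2. Per1, near its ceiling, went from 92.6% to all of 96 cells and from 84.2% to 98.9%. Markers of other cell types differed among themselves. In the passing cells the epithelial marker Epcam had 2 counts and the blood cell markers Ptprc and Cd3e had 1 and 4. Cdh1, on the same epithelial list, was found in 43.4% of cells (4.76 CPM), Cd68, on the immune list, in 11.2%, and the endothelial marker Pecam1 in 9.45%.

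**Figure D2:**
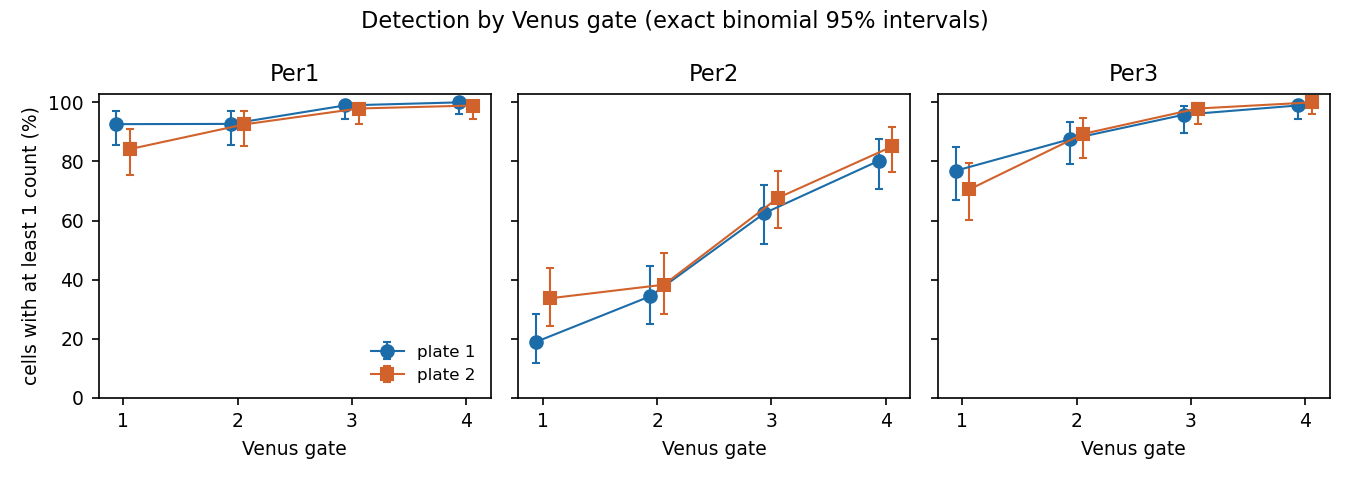
Share of cells with at least 1 count (percent, vertical axis) by Venus gate for Per1, Per2 and Per3 on each plate, with exact 95% binomial intervals. Per2 climbs from 18.9% and 33.7% in gate 1 to 80.2% and 85.1% in gate 4, while Per1 starts at 92.6% and 84.2%.

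Levels in single cells were unequal, most so for Per2 in dim cells. In gate 1 the 10 cells with most Per2 counts held 83.1% of them on plate 1 and 72.4% on plate 2. In gate 4 the corresponding shares were 37.3% and 33.8%. One plate 2 cell of gate 1 reached 111 CPM, the highest Per2 level of any cell. The coefficient of variation of Per2 CPM went from 2.71 to 1.18 between gates 1 and 4 on plate 1, and from 2.86 to 0.936 on plate 2. For Per3 it went from 1.24 to 0.679 and from 1.05 to 0.587, and for Per1 from 0.975 to 0.758 and from 1.00 to 0.619. Of gates 1 and 4, gate 1 was thus the more uneven for each member on each plate. Gate 2 was not always below gate 1: for Per3 on plate 2 its coefficient of variation was 1.07. Both measures also rise when counts are few, and gate 1 held 207 Per2 counts on plate 1 and 377 on plate 2. The part of counting noise in these values was not tested.

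**Figure D3:**
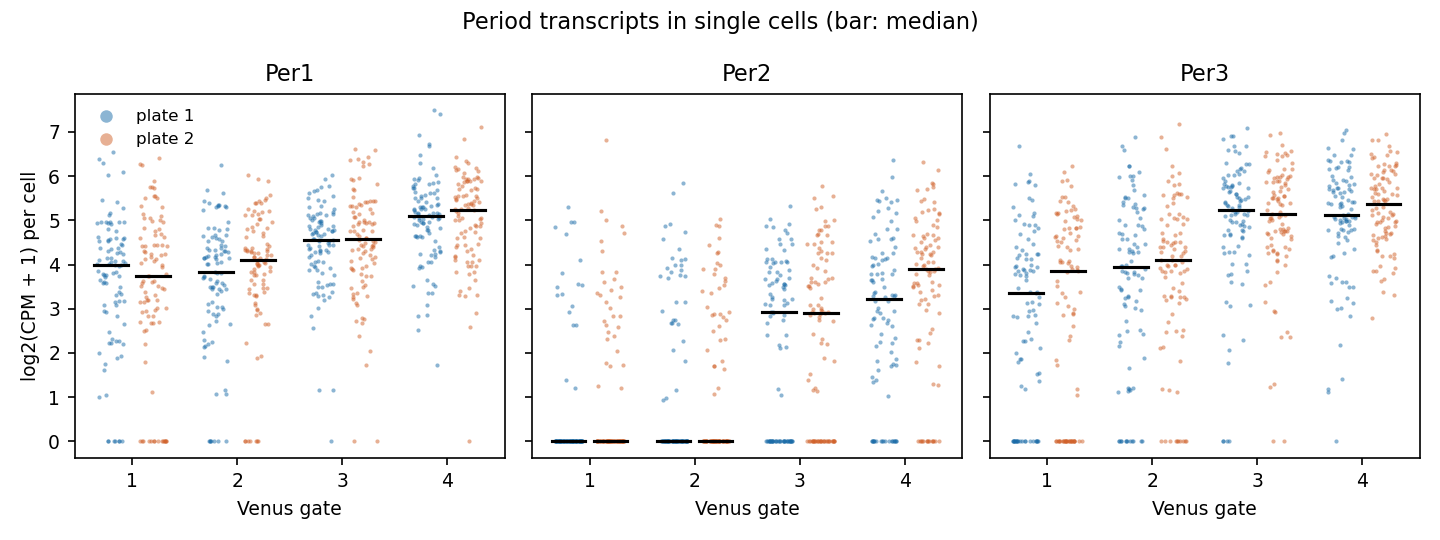
Level of Per1, Per2 and Per3 in each passing cell (log2(CPM + 1), vertical axis) by Venus gate, with points coloured by plate and a bar at the median. The Per2 median lies at 0 in gates 1 and 2 on both plates and at 8.29 CPM (plate 1) and 13.9 CPM (plate 2) in gate 4, whereas Per1 and Per3 have medians above 0 in every gate.

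Across cells the members were positively related to each other. Over whole plates, Spearman's rho was 0.379 and 0.323 (plates 1 and 2) for Per1 with Per2, 0.358 and 0.298 for Per1 with Per3, and 0.412 and 0.397 for Per2 with Per3. Cells of a plate share its sort and its library preparation, and zeros for Per2 weaken its ranks, so these values are descriptive (383 and 379 cells). Ranked inside gates, which removes differences between gates, rho was 0.20 and 0.18, 0.184 and 0.154, and 0.216 and 0.214 in the same order. Every pair therefore kept a positive value with all gates ranked together, lower than over the whole plate. Venus brightness still varied inside each gate, and its part in these values was not tested.

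The relation was not even across gates. For Per1 with Per3 it was 0.268, 0.370, 0.145 and -0.047 in gates 1 to 4 of plate 1, and 0.159, 0.273, 0.167 and 0.017 on plate 2. For Per2 with Per3 it was 0.232, 0.386, 0.263 and 0.021 on plate 1, and the lowest value on plate 2 was also that of gate 4, 0.094. Per1 with Per2 had 0.257, 0.255, 0.227 and 0.095 on plate 1, but on plate 2 its values were 0.230, 0.105, 0.206 and 0.168, with gate 2 the lowest. In the brightest gate, cells with more Per3 were thus not clearly those with more Per1 or Per2.

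With the reporter mRNA the picture depended on the scale of comparison. Over whole plates YFP counts went up with Per1 (0.371 and 0.368), Per2 (0.367 and 0.349) and Per3 (0.419 and 0.383). Ranked inside gates, rho with YFP was -0.018 and -0.022 for Per1, -0.128 and -0.197 for Per2, and 0.010 and -0.158 for Per3. In gate 1, the dimmest, it was -0.302 and -0.383 for Per2 and -0.140 and -0.451 for Per3. Dim cells with more reporter mRNA thus had less Per2 and, most of all on plate 2, less Per3.

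**Figure D4:**
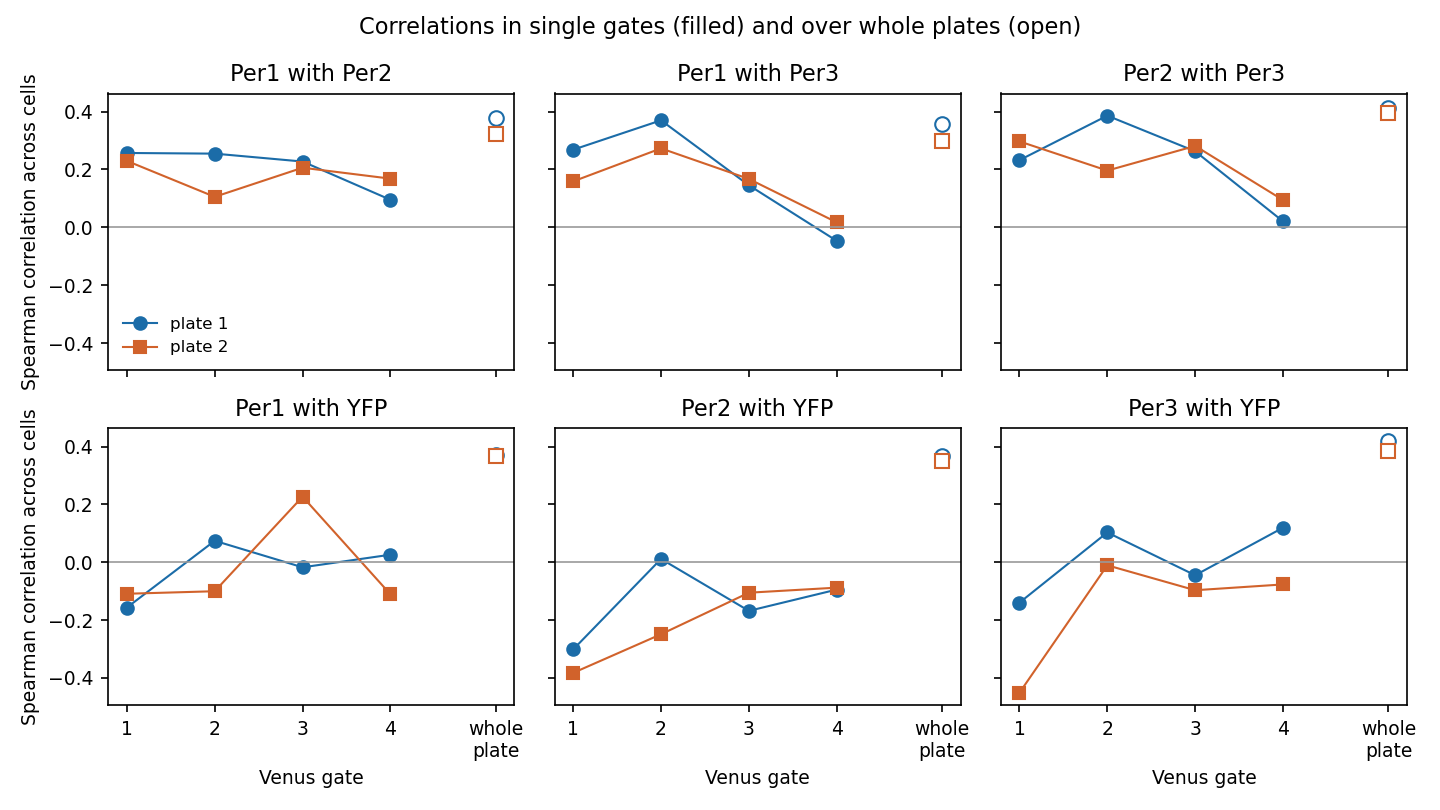
Spearman correlation across cells (vertical axis) inside each Venus gate (filled) and over whole plates (open) for the 3 pairs of members and for each member with the reporter mRNA YFP, by plate. Per1 with Per3 and Per2 with Per3 have their lowest values in gate 4 on both plates, Per1 with Per2 does so on plate 1 only, and Per2 with YFP is positive over whole plates (0.367 and 0.349) and negative in gate 1 (-0.302 and -0.383).

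Recorded Venus fluorescence, the reporter protein, gave another pattern inside gates. Over whole plates rho was 0.404 and 0.388 for Per1, 0.438 and 0.456 for Per2, and 0.454 and 0.476 for Per3. Inside gates it lay between -0.046 and 0.069 for the 3 members. Gate 2 was an exception in which all 3 were positive on both plates: 0.193 and 0.234 for Per1, 0.295 and 0.128 for Per2, and 0.270 and 0.315 for Per3. In gate 1 all 3 were negative on both plates, from -0.171 to -0.081. Total counts per cell, ranked inside gates, had rho between -0.054 and 0.080 with the members.

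To test the relation to the reporter on sums, the cells of each plate and gate were divided at the median YFP level into a YFP-low and a YFP-high set, and each set was summed, giving 16 sums. Per2 was lower in the YFP-high sums by 0.89 ± 0.18 log2 units, which did not pass over all genes (unadjusted p = 0.000538; adjusted p = 0.108, edgeR). Per3 differed by -0.21 ± 0.12 (adjusted p = 0.562) and Per1 by 0.01 ± 0.10 (adjusted p = 0.981). Of 14852 genes, 1642 had an unadjusted p under 0.05 (edgeR) and 0.121% were called, among them Nr1d1 at 1.29 ± 0.03. YFP, which defined the sets, differed by 1.71 ± 0.12. The call for Per2 depended on the analysis: DESeq2 gave -0.90 (adjusted p = 4.40e-05) and edgeR without a filter on low counts gave -0.89 (adjusted p = 0.0222).

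The estimated Per2 difference was widest in gate 1 on plate 1 and in gates 1 and 2 on plate 2. In gate 1 it stood at 4.38 CPM in the YFP-low set and 1.03 in the YFP-high set on plate 1, and at 7.66 and 1.81 on plate 2. In gate 2 it stood at 4.77 and 4.84 on plate 1 and at 6.53 and 1.5 on plate 2. In gate 3 the values were 9.94 and 6.32 on plate 1 and 11.4 and 8.40 on plate 2. The YFP-high set was lower in 6 of 8 blocks. The exceptions were gate 2 of plate 1 and gate 4 of plate 1, where the values were 12.5 and 12.8. The change of the difference with each gate was 0.64 ± 0.16 (unadjusted p = 0.00258, adjusted p = 0.437, edgeR). That test called 0.00673% of genes and no member, and 1059 of 14852 genes had an unadjusted p under 0.05 (edgeR). DESeq2 called this change for Per2 (0.65, adjusted p = 0.0130), among 51 genes. Without the block of plate and gate the fit held no gate term, so it did not measure this change. Its value was the slope of the YFP-high sums along the gates. That slope was called by edgeR in 435 of 14852 genes. All 3 members were among them (adjusted p = 0.0300 for Per1, 0.0238 for Per2 and 0.0339 for Per3, edgeR). The slope bears on the trend along the gates, not on the YFP difference.

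The same contrast was seen in detection. In gate 1 Per2 was found in 13 of 48 YFP-low cells (27.1%) and 5 of 47 YFP-high cells (10.6%) on plate 1. On plate 2 the counts were 22 of 48 (45.8%) and 10 of 47 (21.3%). Few cells carried these sums, and a single cell held 22.6% of the Per2 counts in the YFP-low set of gate 1 on plate 1 and 32.7% on plate 2. The YFP-low sets of gate 1 included 23 and 17 cells with no YFP count. The summed level of 10 G2/M genes was also lower in the YFP-high set in 7 of 8 blocks, going from 212 to 147 CPM in gate 1 of plate 1 and from 355 to 232 CPM in gate 1 of plate 2. Median differences were -0.81 for these genes and -0.44 for 10 S-phase genes, none of them called, and their part in the Per2 difference was not tested.

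**Figure D5:**
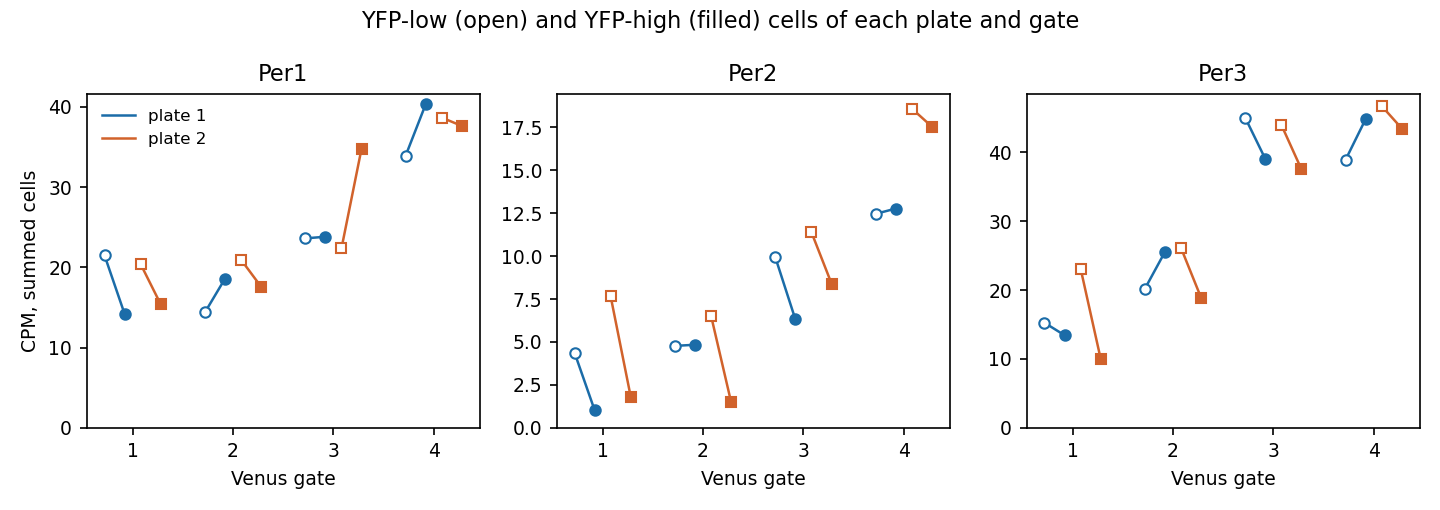
Level of Per1, Per2 and Per3 (CPM, vertical axis) in the YFP-low (open) and YFP-high (filled) sets of each Venus gate and plate, each point the sum of 47 or 48 cells. Per2 lies lower in the YFP-high set in 6 of 8 blocks, with gate 1 going from 4.38 to 1.03 and from 7.66 to 1.81.

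When the sets were made on recorded Venus instead, no member passed the test. Per1 differed by 0.00 ± 0.10 (adjusted p = 0.999, edgeR), Per2 by -0.10 ± 0.23 (adjusted p = 0.990) and Per3 by 0.24 ± 0.15 (adjusted p = 0.903). The test called 0 of 14856 genes with edgeR, with 825 at an unadjusted p under 0.05, and DESeq2 called 4. In gate 2 all 3 members were higher in the brighter set on both plates, by 0.54 and 0.44 for Per1, 1.05 and 0.69 for Per2, and 0.77 and 1.19 for Per3 (log2). In gate 1 all 3 were lower on both plates, with Per2 at -0.87 and -1.51.

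The genes whose levels followed the members most closely were sought among 12223 genes detected in at least 25% of cells on each plate. Over whole plates Tef and Dbp led for each member. Per3 had rho of 0.596 and 0.589 with Tef and 0.584 and 0.582 with Dbp. Per1 had 0.444 and 0.427 with Dbp, and Per2 had 0.450 and 0.427 with Tef. Arntl, which encodes the activator BMAL1, was the most opposite gene for all 3, at -0.452 and -0.436 for Per3.

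Inside gates Per3 kept Tef (0.398 and 0.388) and Dbp (0.393 and 0.377) as its closest genes, followed by Il11ra1 (0.298 and 0.280), a receptor for interleukin 11. Per1 had Dbp (0.213 and 0.224) and Tef (0.223 and 0.203). For Per2 the closest were Per3 and Per1 themselves, then Tef (0.204 and 0.173). The most opposite genes to Per2 included Thra (-0.177 and -0.269), a thyroid hormone receptor whose exons overlap those of Nr1d1 on the other strand by 263 bases. The use of strand in counting is not given in the sources used here, so reads of Thra and Nr1d1 could be mixed.

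Cry1, the partner of PER proteins in the repressor complex, went with Per2 inside gates (0.160 and 0.246), and less with Per1 (-0.038 and 0.010) or Per3 (0.079 and 0.082), a difference that was not tested. Cry1 fell in the YFP-high sets by 0.81 ± 0.13 on the log2 scale (adjusted p = 0.0495, edgeR), beside the -0.89 of Per2, which did not pass. The Cry1 value lay just under the threshold of 0.05 and was not followed through the alternative settings. The estimates of Cry1 and Per2 were not compared by a test. Along the gates Cry1 rose by 0.13 ± 0.03 per gate (adjusted p = 0.0350, edgeR), a smaller estimate than that of any Period gene.

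The other genes of the pathway were taken from lists, and their counts are to be read against the 15.4% of all genes called along the gates (6.78% higher and 8.64% lower). Of 16 other clock transcription genes, 10 rose and 2 fell along the gates, with a median of 0.25 log2 units per gate beside 0.00051 over all genes. Ciart (0.87), Dbp (0.74) and Nr1d1 (1.38) rose, and Arntl fell by 0.72. Of 10 kinases, phosphatases and ubiquitin ligase genes that act on PER proteins, Ppp1ca rose (0.07) and Csnk1a1 fell by 0.09, and the median was 0.0023. Of 10 genes for proteins of PER complexes, 0 rose and 2 fell, namely Nono, at -0.12, and Ddx5, at -0.06. The 2 calls in each of these lists of 10 are near the share over all genes.

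Genes with other inputs in common with Per1 were counted in the same way. Of 14 stimulus-induced early genes, Ier3 rose (0.10), Fos, Ier2 and Junb fell by 0.17, 0.13 and 0.08, and the median was -0.04. Of 9 tested glucocorticoid receptor targets, Ddit4, Cebpd and Klf9 fell by 0.27, 0.17 and 0.09, and the 1 that rose was Per1 itself. Of 10 S-phase genes, 7 rose along the gates (median 0.28), and of 10 G2/M genes 2 rose (median 0.17). Of 7 fibroblast markers, 2 rose and 4 fell (median -0.10). The S-phase genes, the fibroblast markers, the glucocorticoid receptor targets and the early genes thus held more calls than the 15.4% over all genes. By contrast, the 2 of 10 G2/M genes were near that share. The part of these genes in the Period trends was not tested. Inside gates, the 6 G2/M genes detected in at least 25% of cells all had a negative rho with Per3 on both plates. Their median was -0.148, and Mki67 had -0.173 and -0.120. All 6 had a positive rho with Per2 on both plates, with a median of 0.049. The 10 S-phase genes were also all negative with Per3 on both plates (median -0.114), and 7 were positive with Per2 (median 0.051). Over all genes measured, 30.7% were negative with Per3 on both plates and 31.2% were positive with Per2.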

How the data were processed

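Single-cell FLASH-seq libraries of 768 cells on 2 plates were used. The deposited table holds raw counts per gene and cell. Per the submitters' processing notes, the authors used STAR 2.7.11a, SAMtools, bedtools and HTSeq with GRCm39 (mm39); the order, the annotation, the use of strand and molecular identifiers are not given in the sources used here. The deposited sorting record holds fluorescence and scatter intensity per cell in arbitrary units, and 414 of its columns were not used. Symbols, exon lengths and overlaps came from GENCODE M21, matched by identifier without version (24902 features). Features without a symbol held 1.07% of counts.

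Cells with at least 1000 genes, 0.1 of the plate's median counts and at most 25% mitochondrial counts were kept (762). Each well received a single sorted cell, and no doublet caller was run. No cell was shared between plates. Counts were summed per plate and gate (8 sums) and tested in edgeR 4.0.16 (R 4.3.3; TMM, filterByExpr, quasi-likelihood test, Benjamini-Hochberg adjustment at 0.05) with gate and plate as terms. The trend is a linear contrast, in log2 units per gate. For the comparison of sets inside gates, each plate and gate was divided at its median YFP count level or Venus intensity and served as a block (16 sums). Plate is the replicate number. It was a term in every fit but the alternatives with no block, because all gates of a plate come from 1 plate. The plates are the only replicates and may share a culture, so p-values measure the spread between these sums, which may be technical. Spearman correlations over cells are descriptive and carry no p. Detection intervals are exact binomial and cover counting error only. Thinning drew 300000 counts from each cell.

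Genes named are the members, the reporters, Nr1d1, the 5 most like and 3 most opposite genes by the lower rho of the 2 plates, and list genes by a rule of size; the text gives a selection of them, and members of lists with values of interest were named after their values were seen. The Period genes and the lists were chosen with earlier results of these data known. Alternatives were DESeq2 1.42.0, library totals in place of TMM, no filter, a stricter cell filter, thinned cells, tertiles, no block and each plate alone. The tests were checked on simulated data with the same spread set for all genes. That check did not cover sums of few counts or sums carried by single cells, as for Per2 in the dimmest gate.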

Additional observations from a re-analysis of the deposited data

Results flagged for a closer look

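The plates moved in opposite directions in 7 comparisons of the Period genes. Each plate is 1 sample, and none of these differences between plates was tested. From gate 1 to gate 2, Per1 differed by -0.13 on plate 1 and 0.10 on plate 2 (log2), and Per2 by 0.80 and -0.26. From gate 3 to gate 4, Per3 differed by -0.046 on plate 1 and 0.11 on plate 2. Between YFP-high and YFP-low sets, Per3 differed by 0.059 on plate 1 and -0.48 on plate 2. Between Venus-bright and Venus-dim sets, Per1 differed by -0.046 and 0.045. The change of that Venus difference with each gate was -0.020 and 0.018 for Per1, and 0.10 and -0.061 for Per3.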

How the results depend on the processing

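All 3 trends along the gates stayed positive and on the same side of the threshold in every alternative fit that gave a test. With each plate alone the Per2 trend ranged from 0.70 to 0.71. The number of genes called along the gates was 2843, against 1683 with no replicate block and 1858 with an additive linear model.

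Among values near 0, the sign changed for Per1 from gate 1 to 2 with thinned cells (0.093) and for Per3 from gate 3 to 4 with thinned cells (-0.015). Per1 between YFP-high and YFP-low sets became -0.0046 with library totals, -0.029 with tertiles and -0.033 with no replicate block. Per1 between Venus-bright and Venus-dim sets became 0.026 with thinned cells. The change per gate of the Venus difference became 0.00011 and 0.0021 for Per1 with library totals and the stricter filter. For Per3 it became -0.0098 with tertiles. The fit with no replicate block gave 0.37 for Per1, but it held no gate term. That value is thus the slope of the Venus-bright sums along the gates, not a change of the difference.

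Per2 between the YFP sets stayed negative: -0.90 with DESeq2, -0.89 with no filter and -1.20 with tertiles (adjusted p = 4.40e-05, 0.0222 and 0.0366 by DESeq2, edgeR and edgeR), all past the threshold, and -0.62 with thinned cells, -0.86 with the stricter filter and -0.97 with no replicate block (edgeR adjusted p = 0.152, 0.130 and 0.387). It was -0.64 on plate 1 alone and -1.15 on plate 2 alone. Genes called between YFP-high and YFP-low sets numbered 325 with DESeq2, 119 with no filter, 6 with thinned cells, 50 with tertiles and 1 with no replicate block. Genes called between Venus-bright and Venus-dim sets numbered 4 with DESeq2, 4 with no filter and 1 with thinned cells. The causes were not tested. Of the alternative values for correlations, 63 of 63 over whole plates and 56 of 63 inside gates kept their sign. Cells without a Per2 count may hold Per2 RNA that was not captured or none, which these counts cannot tell apart. Gates, plate columns and Venus brightness cannot be told apart.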
